A study of Mus musculus with 16 samples.

Results

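Amacrine and horizontal cells are the interneurons of the inner and outer retina, and the binding of Foxn3, Foxn4 and Rfx3 around 10 genes that specify them was examined: Ptf1a, Rorb, Onecut1, Onecut2, Lhx1, Prox1, Tfap2a, Tfap2b, Neurod1 and Neurod4. The 10 genes were chosen by name for their known roles, out of 21887 protein-coding genes in the RefSeq table. Earlier results of these data were known when they were chosen. A peak was assigned to a gene where it overlapped the gene body, or the 50 kb on either side of it, by at least 1 bp. The data came from CUT&RUN, in which an antibody guides micrococcal nuclease to the protein of interest so that the DNA around it is cut out and sequenced. Retinas of CD-1 mice, an outbred strain, were taken at embryonic day 16, pooled and dissociated. Of 16 libraries, 4 were made with anti-Foxn3 in 2 experiments, 2 with anti-Foxn4 and 2 with anti-Rfx3, while 6 used rabbit IgG and 2 mouse IgG as controls. The nuclease acted for 1 h in the Foxn3, Rfx3 and rabbit IgG assays and for about 12 h in the Foxn4 and mouse IgG assays, so that antibody, control species and digestion time cannot be told apart in any contrast with Foxn4.

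The deposited data were 3 peak lists, with 2794 peaks for Foxn3, 2956 for Foxn4 and 3981 for Rfx3. Each antibody had a single list, so no count below has a spread between replicates, and no test was made. The IgG libraries were not analysed here, and the depth behind a peak is unknown. The whole retina was assayed, so a site occupied in a few cells and a site occupied weakly in many cells cannot be told apart. Binding lists hold no expression values against which the labelled tissue could be checked.

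In the developing retina a subset of progenitors expresses Foxn4, a forkhead transcription factor that gives them the competence to form amacrine and horizontal cells. Ptf1a, a basic helix-loop-helix (bHLH) factor, acts downstream of Foxn4 and of the nuclear receptor Rorb and commits cells to these fates. Horizontal cells then depend on the homeodomain factors Onecut1, Onecut2, Lhx1 and Prox1, the AP-2 factors Tfap2a and Tfap2b act downstream of Ptf1a, and the bHLH factors Neurod1 and Neurod4 promote amacrine cells. Foxn3, a forkhead repressor, and Rfx3, a winged-helix factor, are better known from ciliary genes.

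Peaks near the 10 fate genes came from the Foxn4 and Rfx3 lists, and the Foxn3 list had none. Foxn4 peaks lay at 4 genes (Rorb, Neurod1, Neurod4 and Prox1), where 19.9% of all protein-coding genes had one under the same rule. Rfx3 peaks lay at 2 genes (Neurod1 and Onecut2), against 33.0% of all genes. For Foxn3 the count was 0 of 10 genes, against 27.4% of all genes. A peak of at least 1 list lay at 5 of the 10 genes, against 40.4% of all genes. At the other 5 genes (Ptf1a, Onecut1, Lhx1, Tfap2a and Tfap2b) no list had a peak.

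**Figure D1:**
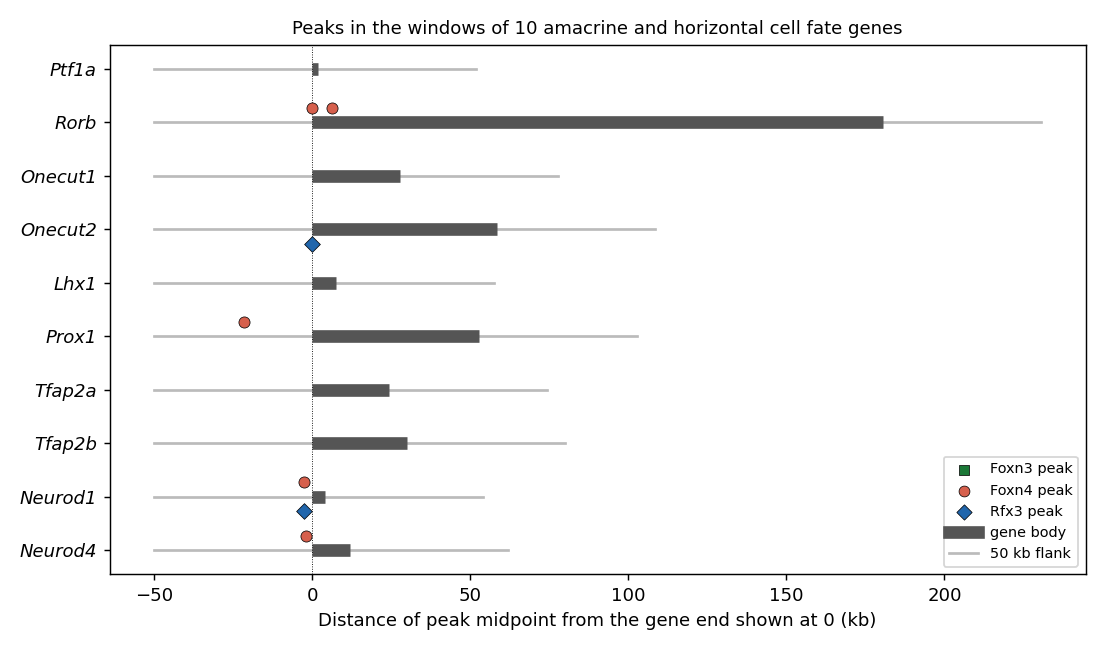
Each row is a gene, with its body as a dark bar, the 50 kb flanks as a thin line and peak midpoints as symbols coloured by list, and the x axis gives the distance in kb from 1 end of the gene. That end is the one with the outermost annotated start, except for Tfap2b, whose annotated start lies inside the body, Tfap2a, whose starts also lie inside, and Onecut2, which is shown from its lower-coordinate end. The 7 peaks cluster near 0, apart from the Prox1 peak 21.4 kb away.

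The 7 peaks comprised 5 of Foxn4 and 2 of Rfx3 in 1.4 Mb of window. This was 3.57 Foxn4 peaks per Mb, against 1.36 per Mb over the merged windows of all protein-coding genes. Rfx3 had 1.43 peaks per Mb against 2.18, and Foxn3 had 0 against 1.53. With so few peaks these densities are descriptions of the 10 loci only. Every one of the 7 peaks had the fate gene itself as its nearest protein-coding gene. Few other genes could have been nearest. The windows of Prox1 and Onecut2 held no other protein-coding gene, and those of Neurod1, Neurod4 and Rorb held 1 each. The matching share over all genes is not given here.

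Rorb (chromosome 19, 18930609 to 19111196, minus strand), the nuclear receptor that cooperates with Foxn4 upstream of Ptf1a, was the gene with the most Foxn4 peaks. Its body is 180.6 kb long and has 2 annotated starts, an outer one at 19111196 and an inner one at 19001117. A Foxn4 peak at 19111171 to 19111542 (372 bp) covered the outer start, with its midpoint 160 bp upstream. Its score was 8.89, at percentile 71.6 of the Foxn4 list. A percentile here is the percent of the other peaks of the same list with a lower score, with ties at mid-rank. The other Foxn4 peak, at 19104655 to 19105038 (384 bp), lay within the gene body 6.35 kb downstream of the outer start and 103.7 kb upstream of the inner start, with a score of 9.78 at percentile 78.3. Neither overlapped a Foxn3 or Rfx3 peak, and the inner start had no peak of any list. The gene table lists no exons, so whether the inner peak is exonic or intronic was not examined.

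Onecut2, whose Rfx3 peak at a gene end is described below, had no promoter in the RefSeq table. Of the fate gene promoters listed there, only the outer one of Rorb overlapped a peak. The 250 bases upstream of its outer start were covered in full by the Foxn4 peak, and are shown together with those of Ptf1a, the textbook downstream gene, and of Neurod1 and Neurod4, whose peaks lay farther upstream. Sequences are RefSeq, GRCm38.p6, printed 5′ to 3′ on the strand of the gene up to the base before the annotated start. Capitals mark GACGC, the alternate motif of Foxn proteins, TAAACA, the core of the canonical forkhead motif, and GTTGCC, an arm of the X-box bound by Rfx proteins, each on either strand.
Rorb, chr19:19111197-19111446, minus strand: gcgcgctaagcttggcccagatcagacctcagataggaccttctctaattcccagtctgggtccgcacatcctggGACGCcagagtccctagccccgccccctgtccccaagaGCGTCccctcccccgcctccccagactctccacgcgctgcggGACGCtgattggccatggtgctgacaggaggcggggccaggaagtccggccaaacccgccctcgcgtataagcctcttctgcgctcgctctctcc
Ptf1a, chr2:19445413-19445662, plus strand: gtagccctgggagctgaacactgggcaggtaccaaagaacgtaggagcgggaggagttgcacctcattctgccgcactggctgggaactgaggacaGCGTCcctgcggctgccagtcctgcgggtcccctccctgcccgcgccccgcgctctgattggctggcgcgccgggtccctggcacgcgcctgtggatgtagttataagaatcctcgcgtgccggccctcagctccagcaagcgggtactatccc
Neurod1, chr2:79456637-79456886, minus strand: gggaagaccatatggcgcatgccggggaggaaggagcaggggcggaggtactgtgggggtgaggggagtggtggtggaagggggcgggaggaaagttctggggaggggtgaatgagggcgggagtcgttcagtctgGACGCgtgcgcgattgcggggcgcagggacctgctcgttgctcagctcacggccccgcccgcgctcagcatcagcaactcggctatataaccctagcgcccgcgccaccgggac
Neurod4, chr10:130280255-130280504, minus strand: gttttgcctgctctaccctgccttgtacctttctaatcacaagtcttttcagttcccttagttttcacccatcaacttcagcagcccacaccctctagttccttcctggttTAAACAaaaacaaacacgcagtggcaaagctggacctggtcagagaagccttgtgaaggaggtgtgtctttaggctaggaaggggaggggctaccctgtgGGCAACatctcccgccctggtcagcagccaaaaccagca
The Rorb sequence holds 3 copies of GACGC, beginning 175, 137 and 95 bases before the start, of which the middle one is on the opposite strand. Ptf1a and Neurod1 each hold 1 copy, 154 and 114 bases before the start. Neurod4 holds no GACGC and instead 1 TAAACA and 1 GTTGCC.

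Matches were counted over promoters running from 250 bases before to 50 after a start, of which the RefSeq table had 13 for 9 of the 10 genes and 32851 in all; Onecut2 had no entry. GACGC was found in 7 of the 13 promoters, 1 each of Ptf1a, Rorb, Onecut1, Lhx1, Prox1, Tfap2a and Neurod1, and in 27.2% of all promoters. It was in 56.6% of the promoters with a Foxn3 peak, 55.9% of those with a Foxn4 peak and 53.8% of those with an Rfx3 peak. At least 3 copies were held by 2.26% of all promoters by 6.19% of the 1050 promoters overlapped by a Foxn4 peak, and by 6.72% and 5.92% of those overlapped by a Foxn3 or an Rfx3 peak. Among the members, the outer Rorb promoter alone reached this number. Base composition moves with these counts: the Rorb sequence had 18 CG steps, against a median of 6 in all promoters and of 19 in those with a Foxn4 peak, and its part in the motif count was not tested. The full forkhead motif GTAAACA was in no member promoter and in 3.65% of all, while TAAACA, which GTAAACA contains, was in 3 of the 13 promoters (Prox1, Neurod4 and the inner start of Rorb) and in 13.4% of all. GTTGCC was in the promoters of Neurod4 alone, which overlap each other and share the copy, and in 12.5% of all promoters. Promoters with an Rfx3 peak held it in 27.3% of cases, those with a Foxn3 peak in 26.2% and those with a Foxn4 peak in 16.1%. A match describes letters in the window and is not a binding site.

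Neurod1 (chromosome 2, 79452637 to 79456636, minus strand), a bHLH factor of amacrine cells and also of photoreceptors, was the only fate gene with peaks of more than 1 list. Foxn4 and Rfx3 peaks together there were seen at 1 of 10 genes, against 14.2% of all genes. The Foxn4 peak spanned 79458975 to 79459390 (416 bp) and the Rfx3 peak 79458997 to 79459638 (642 bp). They overlapped by 394 bp, with midpoints 135 bp apart, and lay 2.55 and 2.68 kb upstream of the start. Their standing differed between the lists: the Foxn4 peak had a score of 9.78 at percentile 78.3, and the Rfx3 peak a score of 15 at percentile 0.49, with 3956 of the 3981 Rfx3 peaks scoring higher. Regions of Foxn4 and Rfx3 without Foxn3 were uncommon in the whole data, at 178 of 6155 merged regions (2.89%). The nearest Foxn3 peak was 3470.8 kb from Neurod1.

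Neurod4 (chromosome 10, 130268152 to 130280254, minus strand), the bHLH factor that acts with Neurod1 in amacrine cells, had a single Foxn4 peak in a similar place, 1.93 kb upstream of its outer start (130281921 to 130282442, 522 bp). It was the widest of the 5 Foxn4 peaks and the lowest in score, at 3.56 and percentile 2.93, with 2803 of 2956 Foxn4 peaks above it. No Rfx3 peak lay within 1344.8 kb and no Foxn3 peak within 1446.1 kb. The Neurod4 promoter printed above holds GTTGCC, as do 12.5% of all promoters. Tespa1, a gene named for thymocyte expression, also lies in the window.

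Prox1 (chromosome 1, 190118035 to 190170827, minus strand), a homeodomain factor required for horizontal cells, had a Foxn4 peak 21.4 kb upstream of its outer start (190192054 to 190192362, 309 bp). No other protein-coding gene lies in its window. The score was 6.22, at percentile 36.7, a value shared with 438 other Foxn4 peaks. Neither of its 2 promoters had a peak. The nearest Foxn3 and Rfx3 peaks were both 429.6 kb away, in a region of all 3 factors beside Cenpf.

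Onecut2 (chromosome 18, 64340032 to 64398488), a CUT homeodomain factor that acts with Onecut1 in horizontal cells, was the only fate gene with an Rfx3 peak at a gene end. The peak spanned 64339785 to 64340116 (332 bp), with its midpoint 82 bp outside the lower-coordinate end. Its score was 42, at percentile 24 of the Rfx3 list, with 3006 Rfx3 peaks higher. Strands were read from the promoter table, where Onecut2 has no entry, so the end is given by coordinate. Whether the peak overlaps an Onecut2 promoter was therefore not examined. No Foxn4 peak lay within 1131.9 kb and no Foxn3 peak within 631.3 kb.

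The 5 genes without a peak included Ptf1a (chromosome 2, 19445663 to 19447501), whose body is only 1.84 kb long. Its nearest Foxn4 peak was 969.5 kb away, inside Etl4. Its nearest Foxn3 and Rfx3 peaks overlapped each other 106.2 and 106.3 kb away and had midpoints 0.135 and 0.239 kb from the neighbouring gene 4921504E06Rik. Onecut1 (chromosome 9, 74861921 to 74889648), the partner of Onecut2, had the same arrangement: overlapping Foxn3 and Rfx3 peaks 63.0 and 62.8 kb away, beside an end of Fam214a, at percentiles 88.9 and 86.7 of their lists. Its nearest Foxn4 peak was 2606.9 kb away.

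Lhx1 (chromosome 11, 84517975 to 84525534), a LIM homeodomain factor that places horizontal cells in their layer, had its nearest Foxn3 and Foxn4 peaks 474.2 kb away inside Synrg and its nearest Rfx3 peak at 235.4 kb. Tfap2a (chromosome 13, 40713802 to 40738238) and Tfap2b (chromosome 1, 19208908 to 19238845), the AP-2 factors, were also far from every list. Around Tfap2a the nearest Foxn3 and Rfx3 peaks overlapped inside Pak1ip1, 262.6 kb away, and the nearest Foxn4 peak was at 738.0 kb. Around Tfap2b all 3 lists had their nearest peak in the same region inside Pkhd1, between 1063.5 and 1063.7 kb away. Over the 10 genes the distance from the gene body to the nearest peak had a median of 552.7 kb for Foxn3, 606.1 kb for Foxn4 and 185.6 kb for Rfx3. Over all protein-coding genes on chromosomes that carry peaks of the list, the medians were 191.9, 257.0 and 137.5 kb.

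**Figure D2:**
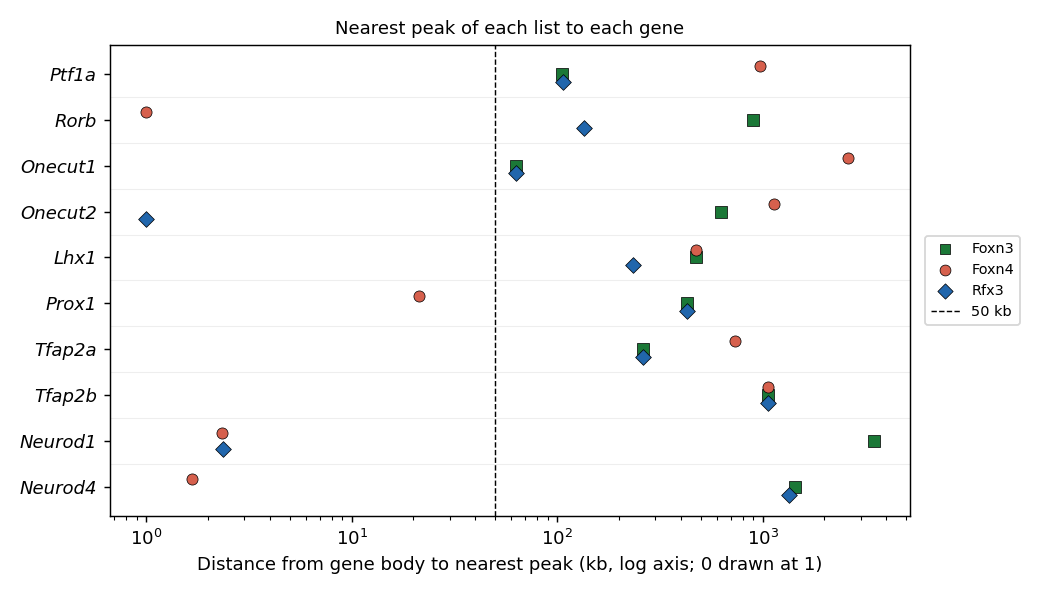
The x axis gives the distance in kb, on a log scale, from each gene body to the nearest peak of each list (symbols), with the 50 kb limit as a dashed line and overlaps with the body drawn at 1. Foxn4 symbols fall left of the line for 4 genes and at 474.2 kb or more for the other 6, while Foxn3 symbols run from 63.0 to 3470.8 kb.

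The Foxn3 list lacks 851 of its own peak numbers, which run to 3645 in order of position, and the reason is not given in the sources used here. For 6 of the 10 genes (Ptf1a, Prox1, Onecut1, Onecut2, Tfap2a and Rorb) the Foxn3 peaks on either side carried consecutive numbers, with no number absent between them. Absent numbers fell between the flanking peaks for Lhx1 (4 numbers in 2763.2 kb), Neurod1 (2 in 8696.2 kb) and Tfap2b (1 in 10262.2 kb), and for Neurod4 (1 before the first peak of the next chromosome). The list does not show whether any of these lay within 50 kb of the gene.

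How far a peak may lie from the gene changed the counts as follows. In the gene body itself, the Foxn4 list had a peak at 1 fate gene, Rorb, against 6.86% of all genes. The Rfx3 list had a body peak at 1, Onecut2, against 13.6%, and the Foxn3 list at 0 against 10.4%. Within 10 kb the Foxn4 count was 3 of 10 (Rorb, Neurod1 and Neurod4) against 10.5% of all genes, the Rfx3 count 2 against 19.2% and the Foxn3 count 0 against 15.3%. The farthest peak inside the 50 kb limit was that of Prox1, 21.2 kb from the gene body. The nearest ones outside it were Foxn4 peaks at 52.5 and 53.1 kb from Neurod1, inside Cerkl, and at 56.3 kb from Rorb, inside Trpm6. Within 100 kb the Foxn4 count stayed at 4 against 29.1%, the Rfx3 count was 3 against 43.7% and the Foxn3 count 1 against 37.3%, Onecut1 being the gene added to both.

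**Figure D3:**
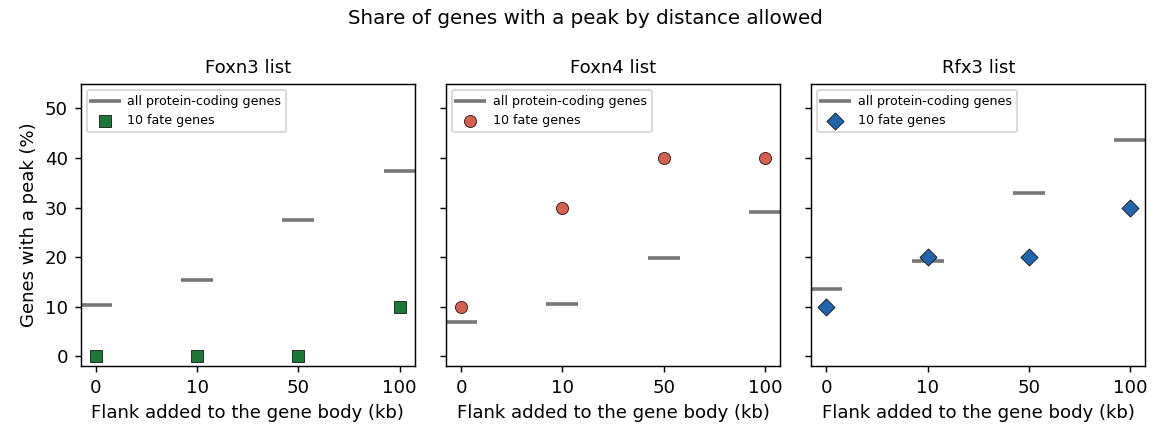
Each panel is a peak list, with the flank added to the gene body (0, 10, 50 or 100 kb, evenly spaced) on the x axis and the percent of genes with a peak on the y axis, for the 10 fate genes (symbols) and all 21887 protein-coding genes (grey bars). The Foxn4 symbols lie above the grey bars at all 4 distances and the Foxn3 symbols below them, while the Rfx3 symbols lie below except at 10 kb.

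Sharing between the lists was counted by gene and by region. No fate gene had peaks of all 3 lists in its window, against 12.5% of all genes, and none had a region in which peaks of all 3 overlapped, against 10.8%. With 10 genes, a count of 0 is near these shares. Of the 5 Foxn4 peaks, 4 stood alone, whereas 56% of the whole Foxn4 list did. Genes with a Foxn4 peak and neither of the others numbered 3 of 10 (Rorb, Neurod4 and Prox1), against 4.4% of all genes. The trait is not particular to the fate genes. In the lists described below, it was seen at 6 of 34 further regulators of amacrine and horizontal cells and 1 of 19 marker genes. It was also seen at 4 of 22 photoreceptor and ganglion cell fate genes and 4 of 22 retinal progenitor transcription factor genes. Some genes are shared between these lists and are counted in each. Of the 2 Rfx3 peaks, that of Onecut2 stood alone, as did 39.2% of the Rfx3 list.

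Score ranks differed among the members. Foxn4 peaks at Rorb and Neurod1 lay above the median of their list and those at Prox1 and Neurod4 below it, giving a median percentile of 71.6 over the 5 peaks, where the list itself has its median at 50. Foxn4 scores are coarse, in steps of 0.889, and the 5 peaks stood at 4, 7, 10, 11 and 11 steps. The Rfx3 peaks, at percentiles 24 and 0.49, both lay below the median of their list, with a median percentile of 12.3.

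**Figure D4:**
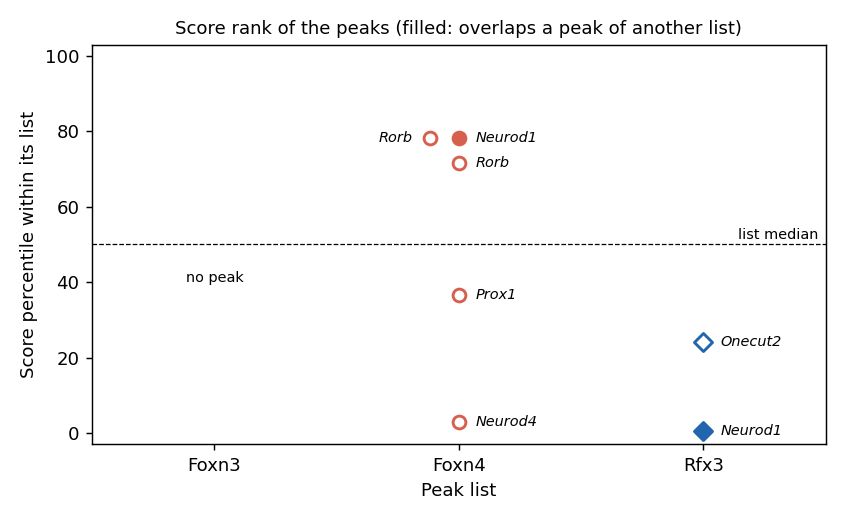
The y axis gives the percentile of each peak's score within its own list and the x axis the list, with each symbol a peak labelled by gene, filled where it overlaps a peak of another list. Peaks at Rorb and Neurod1 sit between 71.6 and 78.3 in the Foxn4 list, and both Rfx3 peaks sit at or below 24.

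Other genes of these cell types gave a wider view. Among 34 further regulators of amacrine and horizontal cells, 9 had a Foxn3 peak, 11 a Foxn4 peak and 10 an Rfx3 peak in the body or within 50 kb. These are 26.5%, 32.4% and 29.4% of them, against 27.4%, 19.9% and 33.0% of all genes. No list had a peak at 17 of the 34, whereas 40.4% of all genes had a peak of some list and the rest none. Of the 18 Foxn4 peaks at these regulators, 13 stood alone, whereas none of the 12 Foxn3 peaks and 4 of the 15 Rfx3 peaks did. In the whole lists 56% of Foxn4, 10.5% of Foxn3 and 39.2% of Rfx3 peaks stood alone, in the same order. Overlapping peaks of all 3 lists were found at 3 of the 34, against 10.8% of all genes. Foxn4 itself and Casz1 were among these 3. In the Foxn4 gene (chromosome 5) the region spanned the Foxn3 peak at 114263934 to 114264471, and all 3 peaks ranked low, at percentiles 7.48 for Foxn3, 22.3 for Foxn4 and 7.19 for Rfx3. Casz1, a zinc-finger factor of retinal progenitors, held 2 such regions in its body. In 1 of them the percentiles were 80.2 for Foxn3, 83.6 for Foxn4 and 83.8 for Rfx3. In the other they were 9.63, 50.8 and 0.716, so its Foxn3 and Rfx3 peaks ranked low.

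Of 19 genes used as markers of mature amacrine and horizontal cells, 6 had a Foxn3 peak (31.6%, against 27.4% of all genes). A Foxn4 peak lay at 3 (15.8% against 19.9%) and an Rfx3 peak at 9 (47.4% against 33.0%). No list had a peak at 9 of the 19, whereas 40.4% of all genes had a peak of some list and the rest none. Regions of all 3 factors lay in the windows of 2 of the 19 markers, near the 10.8% of all genes. These markers were Elavl3, an RNA-binding protein of neurons, and Gja10, a gap junction protein of horizontal cells. Both regions were nearest to another gene, Ccdc151 in the window of Elavl3 and Casp8ap2 in that of Gja10. The same held for many peaks in this group: the marker gene was the nearest gene for 0 of the 6 Foxn3 peaks, 1 of the 4 Foxn4 peaks and 5 of the 15 Rfx3 peaks.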

How the data were processed

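CUT&RUN libraries of embryonic day 16 CD-1 retina were deposited as 3 peak lists, 1 per antibody, in mm10 coordinates per the file headers. The value used is the authors' score for each peak, whose scaling is not given in the sources used here. The submitters' processing notes name cutadapt, Bowtie2, UMI-tools, bedtools and SEACR without versions or roles. The threshold, the use of IgG libraries and which libraries entered a list are not given in the sources used here. Scores were used only for percentiles within a list.

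Gene bodies came from the RefSeq table of GRCm38.p6, the same assembly, and all 10 symbols matched. Peak windows were gene bodies extended by 50 kb, overlaps needed 1 bp, and overlapping peaks of different lists were merged into regions. Counting was done with Python 3.11.15 and pandas 2.3.3, and the window counts were tested on simulated data. Coordinates count from 1. The members, gene lists and motifs were chosen with earlier results of these data known. Named genes were the 10 members and, from the 2 further lists, genes with a region of all 3 factors, of which 1 is not reported here; Pax6, Sox2, Barhl2, Dll4 and Prdm13 were named outside this rule, after their values were seen. No statistical test was run, because the lists hold no replicates. Alternatives were flanks of 0, 10 and 100 kb, peaks at or above the median score, peaks of at least 150 bp, nearest-gene assignment and a 50% overlap.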

Additional observations from a re-analysis of the deposited data

How the results depend on the processing

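No paired analysis was possible because the lists carry no replicates, and leaving out a library was not possible for the same reason. Requiring peaks of at least 150 bp or the fate gene as the nearest gene left every count and both median percentiles as they were, and a 50% overlap left the number of regions shared by all 3 factors at 0. That number, and the number of genes with peaks of all 3 lists, was 0 under each alternative run for it. In the gene body alone, genes with a Foxn4 peak fell from 4 to 1 and those with an Rfx3 peak from 2 to 1, Foxn4 peaks from 5 to 2 and Rfx3 peaks from 2 to 1, and the median percentiles became 74.9 for Foxn4 and 24 for Rfx3. Within 10 kb the Foxn4 list had peaks at 3 genes and 4 peaks in all, with a median percentile of 74.9. Within 100 kb the Foxn3 list gained 1 gene and 1 peak, and Foxn4 peaks rose to 8 with a median percentile of 61.2. The Rfx3 list then had 3 genes and 3 peaks, with a median percentile of 24. With only peaks at or above the median score of their list, the Foxn4 list had peaks at 2 genes and 3 peaks in all, with a median percentile of 78.3, and the Rfx3 list had 0 genes and 0 peaks. The counts rest on 7 peaks, so 1 peak more or less moves them visibly.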

Other observations

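Fate genes of other retinal cell types were counted under the same rule, with no test of the differences. Among 22 photoreceptor and ganglion cell fate genes, 1 had a Foxn3 peak (4.55%), 5 a Foxn4 peak (22.7%) and 2 an Rfx3 peak (9.09%), and 16 had none. Among 22 retinal progenitor transcription factor genes, 7 had a Foxn3 peak (31.8%), 14 a Foxn4 peak (63.6%) and 12 an Rfx3 peak (54.5%), and 5 had none. The shares over all protein-coding genes were 27.4%, 19.9% and 33.0%, and 40.4% had a peak of some list and the rest none. A region of all 3 factors lay at 5 of the 22 progenitor genes and 0 of the 22 photoreceptor and ganglion cell genes, against 10.8% of all genes. Some genes, such as Pax6 and Sox2, belong to both the progenitor list and the further regulators of amacrine and horizontal cells. The photoreceptor and ganglion cell list also shares genes with those further regulators.

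Peaks of the Foxn4 list that overlapped neither other list lay at several developmental regulators among those further regulators, named here after their values were seen. Of the 18 Foxn4 peaks at the further regulators, 13 stood alone, against 56% of the whole Foxn4 list. Some of these 13 lay at regulators that are not named here. Pax6, the master regulator of eye development, had 3 Foxn4 peaks in its window, at percentiles 50.8, 78.3 and 36.7. Sox2, a progenitor factor, had 3, at percentiles 71.6, 10.3 and 10.3. Barhl2, a homeodomain factor of amacrine and ganglion cells, had 2, at 83.6 and 50.8. Dll4, a Notch ligand that Foxn4 is known to activate, had no Foxn4 peak in its window and an Rfx3 peak 20.4 kb away at percentile 73.4, nearest to Vps18. Prdm13, a factor downstream of Ptf1a, had overlapping Foxn3 and Rfx3 peaks beside Ccnc, 41.6 and 41.5 kb away.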
